A study of Mus musculus with 45 samples.

Results

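Aquaporins were examined as a gene family in the uterus of WT and Plag1KO (KO) mice, with Aqp1, Aqp2, Aqp3, Aqp4, Aqp5, Aqp7, Aqp8, Aqp9 and Aqp11 taken by gene symbol. These were 9 of the 24422 genes in the count table, and Aqp8 stood out for levels that differed between whole mice rather than between genotypes. The family was chosen by its counts in these same samples, namely the difference of its members between the layers of the uterus and of Aqp8 between mice, so those patterns are given as descriptions, and calls on the layer contrast are listed with nothing drawn from them.

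The samples came from sexually mature CD-1 females, an outbred stock, of which 7 were WT and 7 carried the KO genotype. In the KO allele the open reading frame of Plag1, a zinc finger transcription factor, is replaced by lacZ in the germline, so every tissue carries it. Each mouse of either genotype had received 5 IU of pregnant mare serum and 5 IU of hCG to induce superovulation. Per the study, uteri were collected in the superovulation experiments, where oocytes (no mating) or zygotes (after mating) were taken the following morning. Which of these mice had been mated, and when each was killed, was not given. A piece of intact horn (uterus), scraped mucosa (endometrium) and the wall left after scraping (myometrium) were sequenced by STRT, which counts the 5′ ends of transcripts, giving 6 groups of 7 mice and 42 samples from 45 libraries.

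Aquaporins are channels that let water pass through cell membranes along osmotic gradients. Aqp1, Aqp2, Aqp4, Aqp5 and Aqp8 are classed as water channels, Aqp3, Aqp7 and Aqp9 also pass glycerol, and Aqp11 belongs to a divergent group that lies mainly inside the cell. In the uterus, whose lumen fills with fluid and is cleared of it over the oestrous cycle, ovarian steroids are known to act on the levels and sites of several of them.

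Total gene counts ranged from 256298 to 1222627 per library. A level of 3 counts, taken as the least that a library could show, corresponded to between 2.45 and 11.7 CPM, where CPM is a count divided by the gene counts of its library and put on the same total for every library. Such a floor covers nothing beyond counting error. Plag1 itself had 7 counts in all, at most 1 in any library, and 5′ tags may lie outside the replaced part, so the genotype labels could not be checked with it. Epithelial markers (Cdh1, Epcam, Krt8 and Krt18) were 4 of 4 higher in endometrium, and smooth muscle markers (Des, Acta2, Cnn1 and Myh11) were 4 of 4 lower, in WT and in KO (edgeR, adjusted p under 0.05). The endometrium of WT mouse 3 and of KO mouse 13 stood apart, with summed smooth muscle genes at 7359 and 8082 CPM against 187 to 2922 CPM in the other 12 mice. The endometrium of WT mouse 8 held 6327 CPM of the summed oviduct genes Ovgp1, Pax8, Foxj1 and Sec14l3, against 43.6 to 638 CPM in the others.

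The stretches in front of the starts of Aqp8, Aqp1 and Aqp5 are shown because STRT reads begin at transcript starts and these 3 genes carry the layer and mouse patterns. They are RefSeq promoter sequences placed on build NCBIM37 (the same assembly as mm9, which the authors used) by an exact and single match on the plus strand. Each is written 5′ to 3′ and ends before the first annotated transcript base, so the Aqp5 stretch is short. Capitals mark a match to the PLAG1 consensus motif.
Aqp8 (chr7:130605558-130605807): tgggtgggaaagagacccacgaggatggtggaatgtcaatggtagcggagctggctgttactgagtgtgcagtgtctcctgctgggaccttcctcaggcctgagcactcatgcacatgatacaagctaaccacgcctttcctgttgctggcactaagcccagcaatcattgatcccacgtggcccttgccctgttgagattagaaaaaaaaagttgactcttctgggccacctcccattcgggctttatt
Aqp1 (chr6:55286043-55286292): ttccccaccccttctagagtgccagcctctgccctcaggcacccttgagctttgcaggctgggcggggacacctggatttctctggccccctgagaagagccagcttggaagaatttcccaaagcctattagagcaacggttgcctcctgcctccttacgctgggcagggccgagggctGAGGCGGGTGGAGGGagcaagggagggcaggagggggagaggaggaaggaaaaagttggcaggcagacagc
Aqp5 (chr15:99421209-99421279): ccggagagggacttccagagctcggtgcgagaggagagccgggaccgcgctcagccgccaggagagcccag
The annotated genes lie at chr7:130605808-130611517 (Aqp8), chr6:55286426-55298549 (Aqp1) and chr15:99421280-99425260 (Aqp5), all on the plus strand, and at chr7:104874889-104886757 on the minus strand for Aqp11. No other annotated gene overlaps any of these 4.

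The 300 bases from 250 before to 50 after each RefSeq start were searched for TATAAA on the coding strand and, on both strands, for the steroid receptor half-sites GGTCA (oestrogen) and TGTTCT (progesterone and glucocorticoid), the full oestrogen element, in which GGTCA and TGACC are spaced by any 3 bases, and the PLAG1 consensus. The Aqp8 window held none of them. The Aqp1 window held the PLAG1 consensus at bases 180 to 194, and the Aqp5 window held GGTCA at bases 161 to 165. That GGTCA lies at -90 from the RefSeq start but past the annotated start of Aqp5, inside the gene, in the part not printed here. Over 32544 promoters of the same length, 22.8% held the PLAG1 consensus, 40.5% GGTCA, 18.9% TGTTCT, 8.28% TATAAA and 0.0707% the full element. These are matches of letters and say nothing of binding.

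Of the 9 members, 4 were measured in most libraries. Over the 45 libraries Aqp8 had 12382 counts, Aqp1 4150, Aqp5 3589 and Aqp11 288. Since STRT counts are not divided by length, levels are compared within a gene and not between genes. Aqp8, Aqp1, Aqp5 and Aqp11 passed the filter of at least 1 CPM in at least 5 samples in every comparison, and Aqp3 passed it as well in the layer comparison of KO mice and in the interaction.

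The other 5 members were at or near 0. Aqp3, the glycerol channel of many epithelial surfaces, had 8 counts in 7 libraries, and Aqp9, best known from liver, had 5 counts in 4 libraries. Aqp7, the glycerol channel of fat cells, had 0 counts in all 45 libraries, which allows up to 11.7 CPM in the shallowest. Aqp2, the vasopressin-regulated channel of the kidney collecting duct, had 5 counts in 4 libraries. Aqp4, the main channel of astrocytes, had 7 counts, of which 4 were in the myometrium of KO mouse 6 (7.47 CPM), the only sample where any of these 5 genes reached 3 counts. At this depth no layer or genotype difference could be detected for them. Of the aquaporin genes outside the chosen members, Mip had 1 count and Aqp6 and Aqp12 had 0.

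Aqp8, a channel of secretory and absorptive epithelia that also passes ammonia and hydrogen peroxide, varied most from mouse to mouse. In whole uterus of the WT mice it was at 46.1 CPM in mouse 1, 605 in mouse 3, 303 in mouse 5, 439 in mouse 7, 45.5 in mouse 8, 509 in mouse 10 and 12.9 in mouse 12. In whole uterus of the KO mice it was at 589 CPM in mouse 2, 998 in mouse 4, 31.3 in mouse 6, 1.72 in mouse 9, 356 in mouse 11, 852 in mouse 13 and 238 in mouse 14. The value of KO mouse 9 was 1 count, under the floor of 5.15 CPM at the depth of that library. Both genotypes thus held low and high mice, and their ranges overlapped.

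In endometrium, Aqp8 in the WT mice was at 199 CPM in mouse 1, 692 in mouse 3, 807 in mouse 5, 533 in mouse 7, 46.4 in mouse 8, 1208 in mouse 10 and 12.9 in mouse 12. In the KO mice it was at 1286 CPM in mouse 2, 1584 in mouse 4, 21.4 in mouse 6, 13.1 in mouse 9, 667 in mouse 11, 589 in mouse 13 and 237 in mouse 14. From the lowest to the highest of the 14 mice the level differed 123-fold, from 10 counts in WT mouse 12 to 1136 counts in KO mouse 4.

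In myometrium, Aqp8 in the WT mice was at 12.1 CPM in mouse 1, 147 in mouse 3, 263 in mouse 5, 108 in mouse 7, 6.00 in mouse 8, 53.6 in mouse 10 and 13.5 in mouse 12. In the KO mice it was at 340 CPM in mice 2 and 4, 5.60 in mouse 6, 0 in mouse 9, 103 in mouse 11, 109 in mouse 13 and 34.5 in mouse 14. The 0 of KO mouse 9 allows up to 9.68 CPM at the depth of that library. The values of WT mouse 8 and KO mouse 6 were 3 counts each, at the floor.

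The same mice were low in each tissue. The 5 lowest were mice 1, 6, 8, 9 and 12 in uterus, in endometrium and in myometrium, and mouse 14 was always next. Of these 5, 3 were WT and 2 were KO. At the upper end, 3 of the 5 highest mice (2, 3 and 4) were shared by all tissues. The wells of mice 1 to 8 lay in plate rows A to C and those of mice 9 to 14 in rows D to F, and the 5 low mice fell in both blocks of rows.

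**Figure D1:**
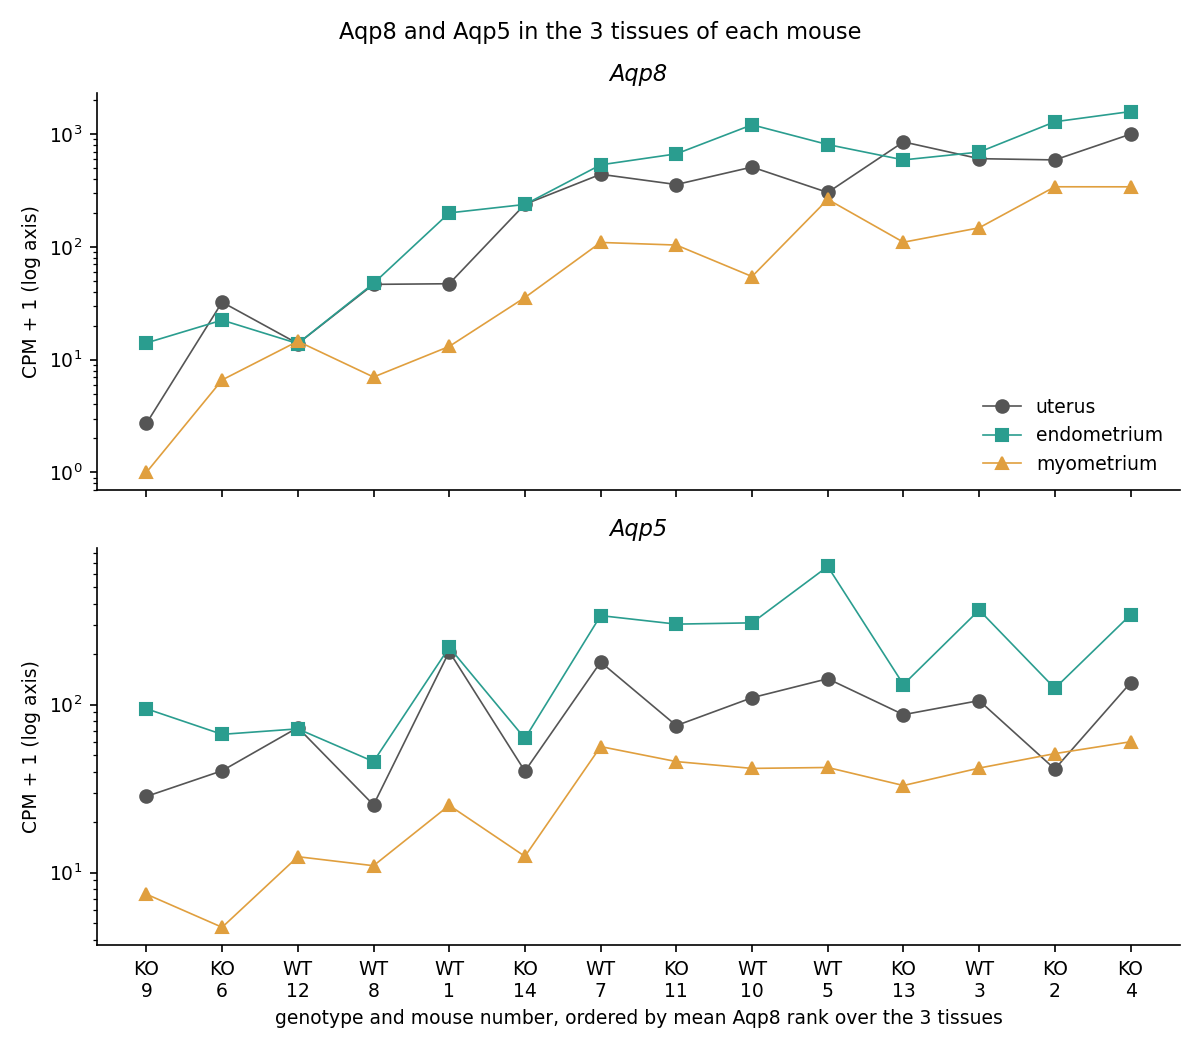
Aqp8 (upper panel) and Aqp5 (lower panel) in the 3 tissues of each of 14 mice, as CPM + 1 on log axes. Mice run from left to right by their mean Aqp8 rank over the tissues, and the lines join samples of 1 tissue. The 3 Aqp8 lines climb together from mice 9, 6, 12, 8 and 1 to mice 2 and 4, whereas Aqp5 of WT mouse 1 lies high in uterus, at 206 CPM.

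After tissue means were subtracted from log2 CPM, 94.3% of the sum of squares of Aqp8 lay between mice, which was the 4th highest share of 14822 genes, against a median of 36.4% over those genes. The SD between mice of the mean over the tissues was 2.32 on the log2 scale (median over all genes 0.34). Genotype accounted for 0.303% of the sum of squares between the 14 mice. The share was 93.4% to 95.4% under other scalings, another prior count and 1 library per mouse.

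For Aqp5 the share was 84.0%, the 47th highest, for Aqp11 it was 53.2% and for Aqp1 51.4%. Aqp5 shared 4 of its 5 lowest mice over the tissues (6, 8, 9 and 14), and 3 of these were also among the low mice of Aqp8. For Aqp1 and Aqp11 a single mouse, KO mouse 11, was among the 5 lowest in every tissue.

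**Figure D2:**
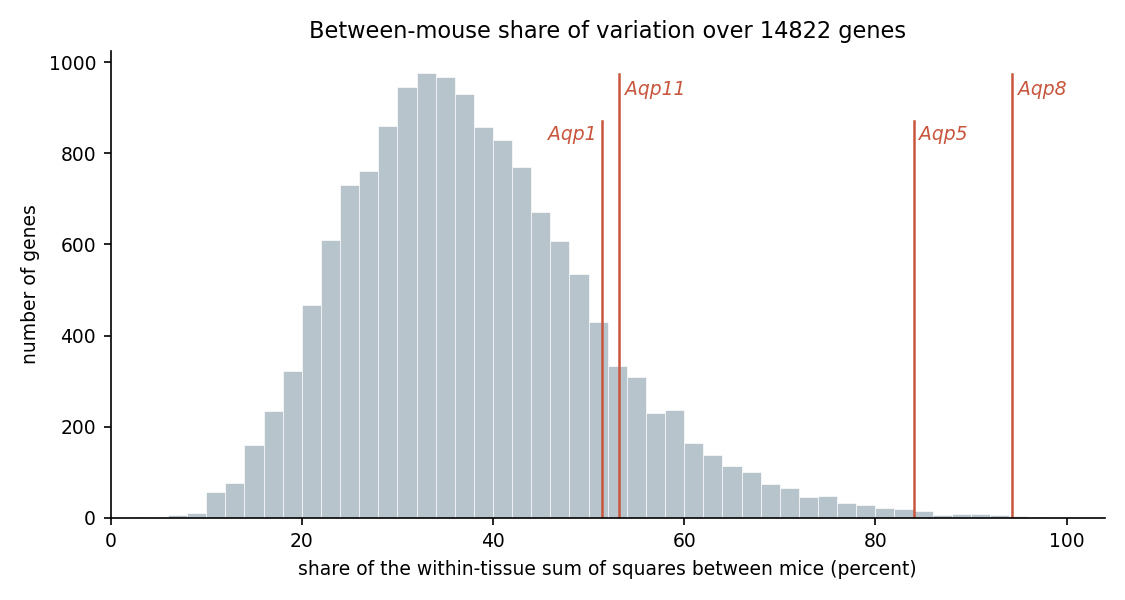
Number of genes (vertical axis) by the share of their within-tissue sum of squares that lay between mice (horizontal axis, percent), for 14822 genes in steps of 2 percentage points. Vertical lines mark the members, with Aqp8 at 94.3% and Aqp5 at 84.0% in the upper tail and Aqp1 at 51.4% and Aqp11 at 53.2% above the median of 36.4%.

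Repeat libraries gave a measure of technical spread. The 3 endometrium libraries of KO mouse 13 had 569, 625 and 586 CPM of Aqp8, a 1.10-fold range. The 2 myometrium libraries of WT mouse 12 had 4.33 and 22.1 CPM, from 2 and 11 counts. The first range was small beside the differences between mice, and the second lay at counts too low to compare. The wells of 2 of the 3 libraries of KO mouse 13, D8 and E8, lay in rows that otherwise held uterus and myometrium, and their summed smooth muscle genes were at 7157 and 7065 CPM, against 9745 CPM for the library in the endometrium row.

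Cell markers were set beside the low mice. The 4 epithelial genes summed to 839, 1376, 1802, 1358 and 978 CPM in the endometrium of mice 1, 6, 8, 9 and 12, within the range of 708 to 2284 CPM over all 14 mice. In uterus they summed to 433 to 984 CPM in these 5 mice, against 433 to 1433 CPM over all 14, and the smooth muscle genes to 5101 to 6865 CPM, against 5101 to 13222 CPM. The smooth muscle sums thus lay in the lower part of the range in the uterus of the low mice. So did those of KO mice 4 (5678 CPM), 13 (5214 CPM) and 2 (6411 CPM), which were among the highest in uterine Aqp8. WT mouse 3, also among the highest, was at 8365 CPM. In the low mice the epithelial sums in uterus ran from the lowest of all (433 CPM in WT mouse 1) to near the middle of the range (984 CPM in KO mouse 6). In myometrium the epithelial genes summed to 52.3 to 154 CPM in these 5 mice, against 52.3 to 576 CPM over all 14, and the part of these contents in the low Aqp8 was not tested. In bulk tissue, fewer cells of a type and less RNA per cell cannot be told apart. All 4 epithelial genes had counts in every group.

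Across the 42 samples, with tissue means subtracted, the Pearson r of Aqp8 was 0.62 with Epcam, 0.50 with Krt18, 0.12 with Krt8 and -0.03 with Cdh1. With the smooth muscle genes it lay between 0.02 and 0.19. These values, and those that follow, are descriptions, since the points share mice, tissues and a library pool.

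The genes most like Aqp8 over the 42 samples, among 6696 genes of at least 10 CPM on average, were Fkbp11, a peptidyl-prolyl isomerase of the endoplasmic reticulum (r = 0.89), Abcb1b, a drug efflux pump (0.87), and Paqr5, a membrane progestin receptor (0.87). With tissue means subtracted the same 3 genes led, at 0.89 for Fkbp11, 0.86 for Paqr5 and 0.86 for Abcb1b. Among the members, r with Aqp8 on that scale was 0.72 for Aqp5, 0.01 for Aqp1 and -0.55 for Aqp11, whose counts were sparse.

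The layer pattern of Aqp8 was seen within mice. In 13 of 14 mice it was higher in endometrium than in myometrium of the same animal, and in WT mouse 12 the layers were nearly level at 12.9 and 13.5 CPM. The median ratio of endometrium to myometrium was 4.91 over the 13 mice with a count in both, with a range from 0.95 in WT mouse 12 to 22.6 in WT mouse 10. The fitted log2 fold change of endometrium against myometrium was 2.44 ± 0.71 (SE) in WT and 2.25 ± 0.78 in KO. Ranges of the layers overlapped in each genotype.

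Aqp5, a water channel placed at the apical face of gland and surface epithelia, was the higher in endometrium of every mouse. In WT endometrium it was at 218 CPM in mouse 1, 365 in mouse 3, 663 in mouse 5, 338 in mouse 7, 44.9 in mouse 8, 306 in mouse 10 and 70.8 in mouse 12. In WT myometrium the values in the same order of mice were 24.2, 40.9, 41.3, 55.3, 10.0, 40.8 and 11.5 CPM. Mice 8 and 12 were low in both layers.

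In KO endometrium Aqp5 was at 124 CPM in mouse 2, 342 in mouse 4, 65.6 in mouse 6, 93.6 in mouse 9, 301 in mouse 11, 131 in mouse 13 and 62.0 in mouse 14. In KO myometrium the values in the same order were 50.1, 59.2, 3.73, 6.45, 44.9, 32.0 and 11.5 CPM. Within the KO mice the ranges of the layers did not overlap, and within the WT mice they did. Endometrium was the higher layer in 14 of 14 mice, with a median ratio of 6.44 and a range from 2.48 to 17.6. The ratios of KO mice 6 (17.6) and 9 (14.5) rest on 2 counts each in myometrium, under the floor of 3 counts. The log2 fold change was 3.02 ± 0.46 in WT and 2.35 ± 0.44 in KO.

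In whole uterus Aqp5 was at 24.3 to 206 CPM in WT (median 109) and 27.4 to 134 CPM in KO (median 40.4). It lay between the layers of the same mouse in 12 of 14 mice. The genes most like Aqp5 over the 42 samples were Sgms2, a sphingomyelin synthase (r = 0.84), Spint1, an inhibitor of membrane serine proteases (0.82), and Bcat1, a branched-chain aminotransferase (0.81). With tissue means subtracted they were Sgms2 (0.76), Aqp8 (0.72) and Lrat, an enzyme that esterifies retinol (0.61).

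Aqp1, the water channel of vessel walls and red blood cells, had the opposite layer order. In WT myometrium it was at 167 CPM in mouse 1, 228 in mouse 3, 130 in mouse 5, 146 in mouse 7, 296 in mouse 8, 271 in mouse 10 and 287 in mouse 12. In WT endometrium the values in the same order were 58.5, 146, 46.7, 22.7, 48.0, 30.7 and 76.0 CPM. Mouse 3, whose scraped mucosa was rich in smooth muscle transcripts, was the highest in endometrium.

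In KO myometrium Aqp1 was at 298 CPM in mouse 2, 218 in mouse 4, 196 in mouse 6, 165 in mouse 9, 113 in mouse 11, 231 in mouse 13 and 229 in mouse 14. In KO endometrium the values in the same order were 25.6, 33.5, 9.98, 47.9, 28.7, 99.1 and 41.3 CPM. Here mouse 13, the other sample rich in smooth muscle transcripts, was the highest, and the ranges of the layers did not overlap in KO. The 3 endometrium libraries of mouse 13 were at 114 (well D8), 44.0 (E8) and 121 CPM (F5), a 2.76-fold range. With the library at 114 or at 121 CPM alone the ranges would overlap, since mouse 11 was at 113 CPM in myometrium.

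Aqp1 was higher in myometrium in 14 of 14 mice, by a median of 4.73-fold and a range of 1.56 to 19.6-fold. The log2 fold change of endometrium against myometrium was -1.93 ± 0.33 in WT and -2.30 ± 0.33 in KO. Without WT mouse 3 the WT value was -2.35, and without KO mouse 13 the KO value was -2.81. In whole uterus Aqp1 was at 76.2 to 327 CPM in WT (median 111) and at 20.6 to 323 CPM in KO (median 67.9).

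Vessel and blood markers were checked because Aqp1 is known from both. The 6 endothelial genes Pecam1, Cdh5, Kdr, Tek, Emcn and Tie1 summed to 56.7 to 203 CPM in WT endometrium and 73.4 to 157 CPM in WT myometrium, and to 41.4 to 165 and 78.4 to 132 CPM in KO. Of the 6, 0 passed the layer test in either genotype (edgeR, adjusted p under 0.05), 0 had an unadjusted p under 0.05, and DESeq2 called 0. Of the red cell genes, Hba-a1, Hbb-b1 and Slc4a1 had no count in any sample, and Alas2 reached at most 30.3 CPM. With counts for only 1 of these 4 genes, the list could not measure the blood content of the samples. Summed over each list, markers of fat and of striated muscle lay on the Aqp1 side. The fat cell genes Adipoq, Plin1, Cidec, Fabp4 and Lipe summed to a median of 17.9 CPM in WT endometrium (10.0 to 83.1) against 88.1 in WT myometrium (63.8 to 204), and of 16.8 (4.18 to 37.1) against 72.1 CPM (24.3 to 113) in KO. Of the 5, 2 were tested and 1 was called lower in endometrium in each genotype, Fabp4, a fatty acid carrier also found in vessel walls (log2 fold change -2.60 ± 0.53 in WT and -3.61 ± 0.55 in KO). Lipe, the other gene tested, was not called and went the other way (0.20 ± 0.49 in WT and 1.58 ± 0.58 in KO). The 5 striated muscle genes, of which Myh4 was at 0, summed to a median of 16.7 CPM (3.25 to 156) against 328 (165 to 668) in WT and 7.88 (4.18 to 170.3) against 389 (334 to 516) in KO. Of these genes, 3 of the 3 tested in WT and 3 of the 4 tested in KO were called lower in endometrium. Over all genes 6.39% were called lower in WT and 8.71% in KO, which applies to the fat cell genes as well. The mesothelial genes Msln, Upk3b, Upk1b, Lrrn4 and Wt1 summed to a median of 13.4 CPM in WT endometrium against 17.3 in WT myometrium. In KO the medians were 16.9 and 25.8 CPM, and the ranges overlapped in both genotypes. In WT 0 of the 5 were called, and in KO 2 were called lower in endometrium, Msln (-2.35 ± 0.78) and Upk3b (-2.71 ± 0.65). The part of fat, striated muscle and mesothelial cells in the Aqp1 pattern was not tested. With tissue means subtracted, r of Aqp1 was 0.67 with Des, 0.59 with Myh11, 0.57 with Cnn1 and 0.53 with Acta2, and the part of the smooth muscle content in the Aqp1 pattern was not tested. The genes most like Aqp1 over the 42 samples were Des, the muscle intermediate filament desmin (r = 0.87), Sdpr, a caveolar protein (0.87), and Galnt16, a glycosyltransferase (0.87). With tissue means subtracted they were Galnt16 (0.71), Aoc3, an amine oxidase of vascular smooth muscle and fat (0.71), and Prelp, a matrix proteoglycan (0.68).

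**Figure D3:**
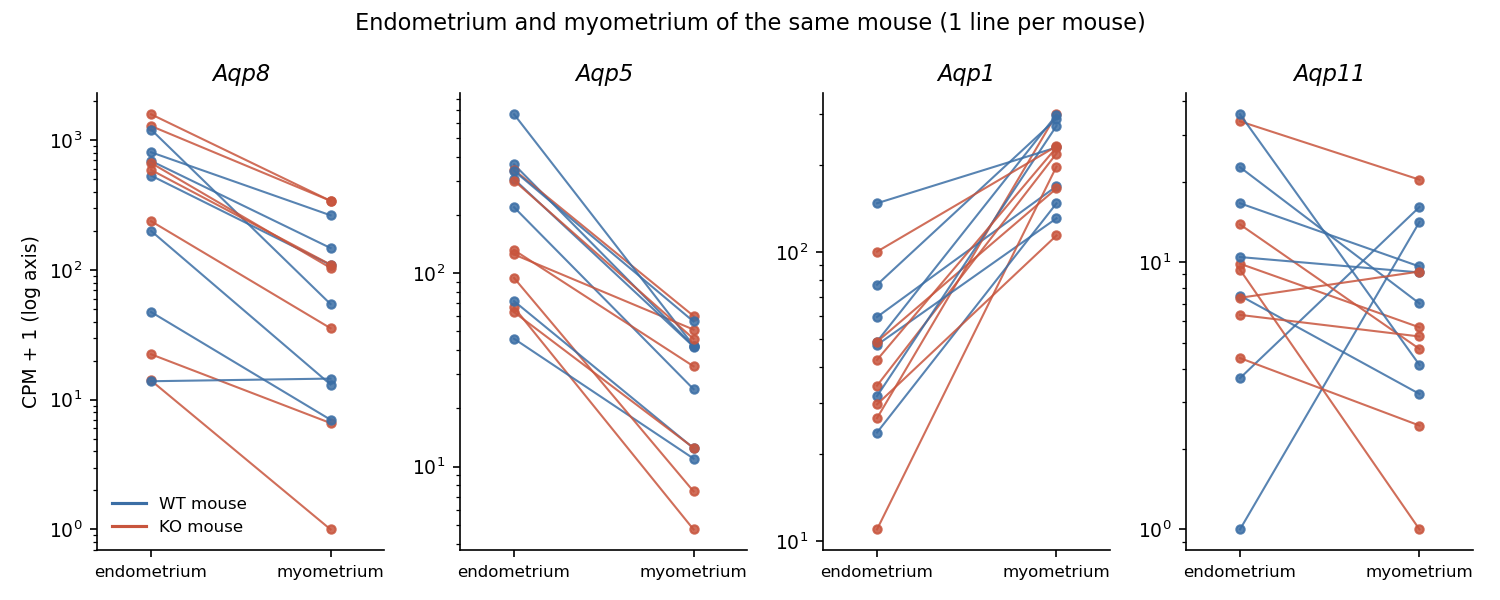
Endometrium and myometrium of each mouse joined by a line, as CPM + 1 on log axes, for 4 members (blue, WT; red, KO; 7 mice each). Aqp5 falls from endometrium to myometrium in 14 of 14 mice and Aqp8 in 13, Aqp1 rises in 14, and the Aqp11 lines cross.

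Aqp11, which lies mainly inside the cell and is needed for the kidney proximal tubule, was low throughout. In whole uterus it ranged from 4.12 to 25.7 CPM in WT (median 13.2) and from 0 to 13.7 CPM in KO (median 2.32). In endometrium it ranged from 0 to 34.8 CPM in WT (median 9.45) and from 3.38 to 32.6 CPM in KO (median 8.37). In myometrium it ranged from 2.21 to 15.1 CPM in WT (median 8.15) and from 0 to 19.4 CPM in KO (median 4.27). All groups overlapped, and of the 42 samples 30 had at least 3 counts. Endometrium was higher than myometrium in 11 of 14 mice. The layer log2 fold change was 0.63 ± 0.55 in WT and 0.89 ± 0.59 in KO.

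In the layer comparison 3 members were called at an adjusted p under 0.05 in WT (Aqp5 and Aqp8 higher in endometrium, Aqp1 lower), against 13.2% of the 13227 genes tested, 6.81% higher and 6.39% lower. The same 3 members were called in KO, against 19.3% of 12969 genes, 10.6% higher and 8.71% lower. The layer contrast is among those for which the family was chosen, so nothing is read from these counts. The Aqp8 call was lost in both genotypes with DESeq2 and with all 6 groups in a single fit, and in KO also with relative log expression factors and a filter at 10 CPM. It was also lost without WT mouse 7 (log2 fold change 2.44) or 10 (1.90), and without KO mouse 2 (2.39), 4 (2.12), 11 (2.16), 13 (2.14) or 14 (2.18), while the direction was the same in each. All of these fits lacked a term for the mouse, although both layers came from the same animals. With the mouse as a block edgeR kept the Aqp8 call in both genotypes. The contrast is the same one, so nothing is read from that call either.

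By group mean, the Aqp8 level fell in the order KO endometrium (628 ± 612 CPM, SD, n = 7), WT endometrium (500 ± 441), KO uterus (438 ± 389), WT uterus (280.0 ± 247), KO myometrium (133 ± 148) and WT myometrium (86.1 ± 94.5). For Aqp5 the order was WT endometrium (287 ± 208), KO endometrium (160 ± 114), WT uterus (119 ± 62.0), KO uterus (63.0 ± 37.8), WT myometrium (32.0 ± 17.1) and KO myometrium (29.7 ± 22.6). For Aqp1 it was WT myometrium (218 ± 70.1), KO myometrium (207 ± 58.0), WT uterus (149 ± 85.7), KO uterus (107 ± 105), WT endometrium (61.2 ± 41.3) and KO endometrium (40.9 ± 28.4). Every pair of neighbours in these orders overlapped, and their means differed by less than the larger of their SDs. The same held for Aqp11, whose group means lay between 5.12 CPM in KO uterus and 13.0 CPM in WT uterus.

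**Figure D4:**
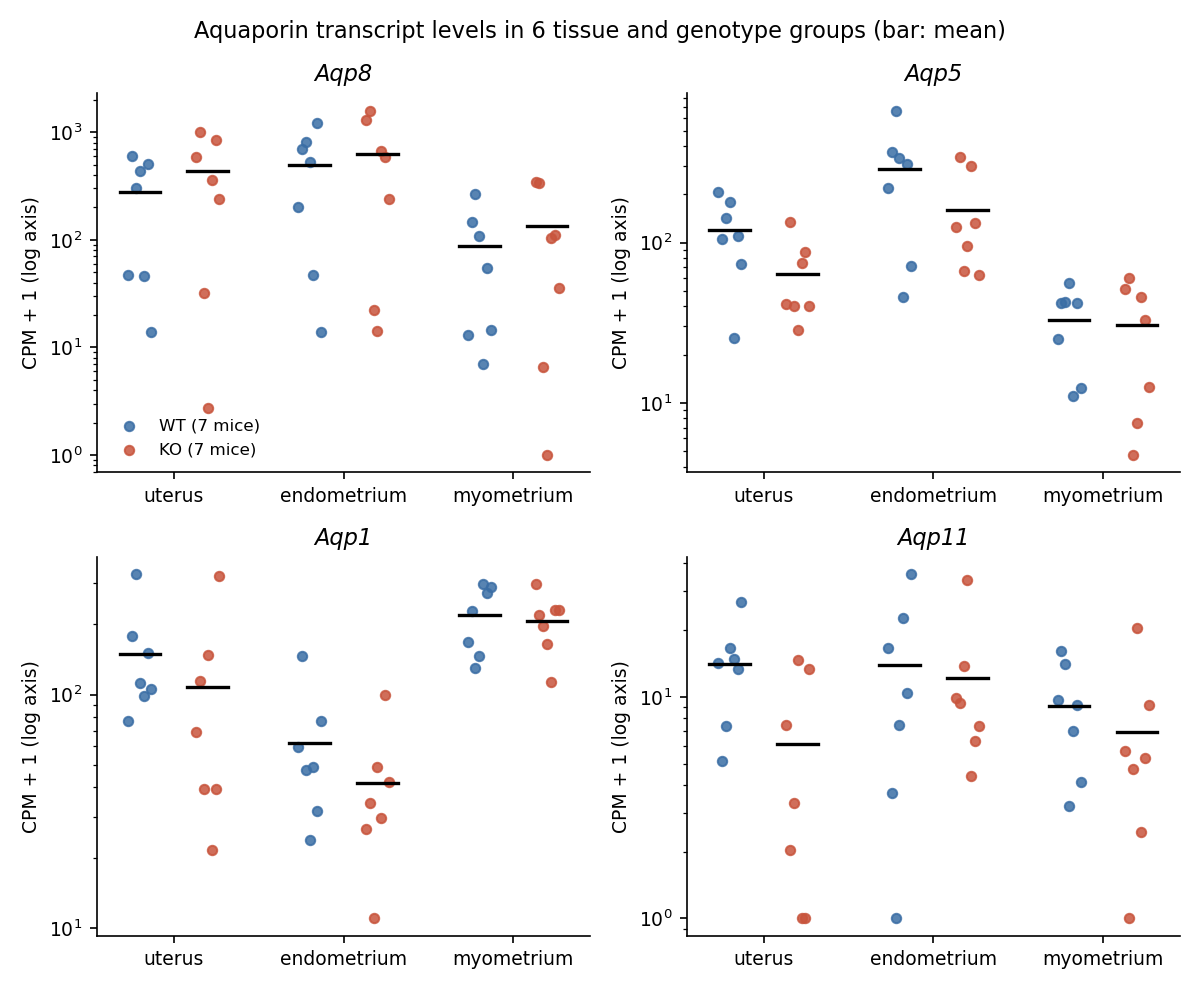
Levels of 4 members in the 6 groups, as CPM + 1 on log axes. Points are mice (7 per group, blue for WT and red for KO) and bars are group means. WT and KO points overlap for each gene in each tissue, and the points of 1 group spread farthest for Aqp8.

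No member passed the test between genotypes (edgeR, adjusted p under 0.05; Aqp11 in uterus alone had an unadjusted p under 0.05), and the percentage of all genes called was 0 in each tissue and in the sums over the tissues. At an unadjusted p under 0.05, 5.64% of genes passed in uterus, 5.2% in endometrium, 4.22% in myometrium and 5.81% in the sums. DESeq2 called 1 gene (0.00769%) in endometrium, which was no member, and 0 in the other comparisons of genotypes.

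The log2 fold change of KO against WT for Aqp8 was 0.79 ± 0.78 (SE) in uterus, 0.37 ± 0.78 in endometrium, 0.59 ± 0.63 in myometrium and 0.57 ± 0.83 in the sums over the 3 tissues of each mouse. These are descriptions, and each is smaller than the spread between mice. Within plate rows D to F, which hold 2 WT and 4 KO mice, the value was -0.78 in endometrium and -0.039 in the sums. With single mice left out it ranged in uterus from 0.43 (without KO mouse 13) to 1.19 (without WT mouse 3) and in endometrium from -0.080 (without KO mouse 4) to 0.82 (without WT mouse 10). In myometrium it ranged from 0.16 (without KO mouse 2) to 1.3 (without WT mouse 5), and in the sums from 0.18 (without KO mouse 4) to 0.86 (without WT mouse 3). The size of the Aqp8 value thus moved with 1 mouse in every tissue.

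For Aqp5 the log2 fold change was -0.79 ± 0.39 in uterus (edgeR, adjusted p = 0.872), -0.75 ± 0.46 in endometrium (0.959), -0.06 ± 0.41 in myometrium (1.00) and -0.56 ± 0.41 in the sums (0.903). For Aqp1 it was -0.42 ± 0.42 in uterus (edgeR, adjusted p = 0.949), -0.45 ± 0.42 in endometrium (0.984), -0.06 ± 0.21 in myometrium (1.00) and -0.36 ± 0.25 in the sums (0.903). In endometrium the Aqp1 value was -0.0068 without WT mouse 3 and -0.92 without KO mouse 13, whose scraped mucosa was rich in smooth muscle transcripts. In uterus it ranged from -0.98 without KO mouse 14 to -0.18 without WT mouse 5. For Aqp11 it was -1.28 ± 0.57 in uterus, with an unadjusted p of 0.0347 and an adjusted p of 0.836 (edgeR). It was -0.29 ± 0.55 in endometrium (edgeR, adjusted p = 0.993), -0.54 ± 0.58 in myometrium (0.9999) and -0.60 ± 0.39 in the sums (0.880). In uterus 4 of the 7 KO mice had fewer than 3 counts of Aqp11 and no WT mouse did. Total counts there ran from 485887 to 1089394 in KO and from 777012 to 1222627 in WT.

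**Figure D5:**
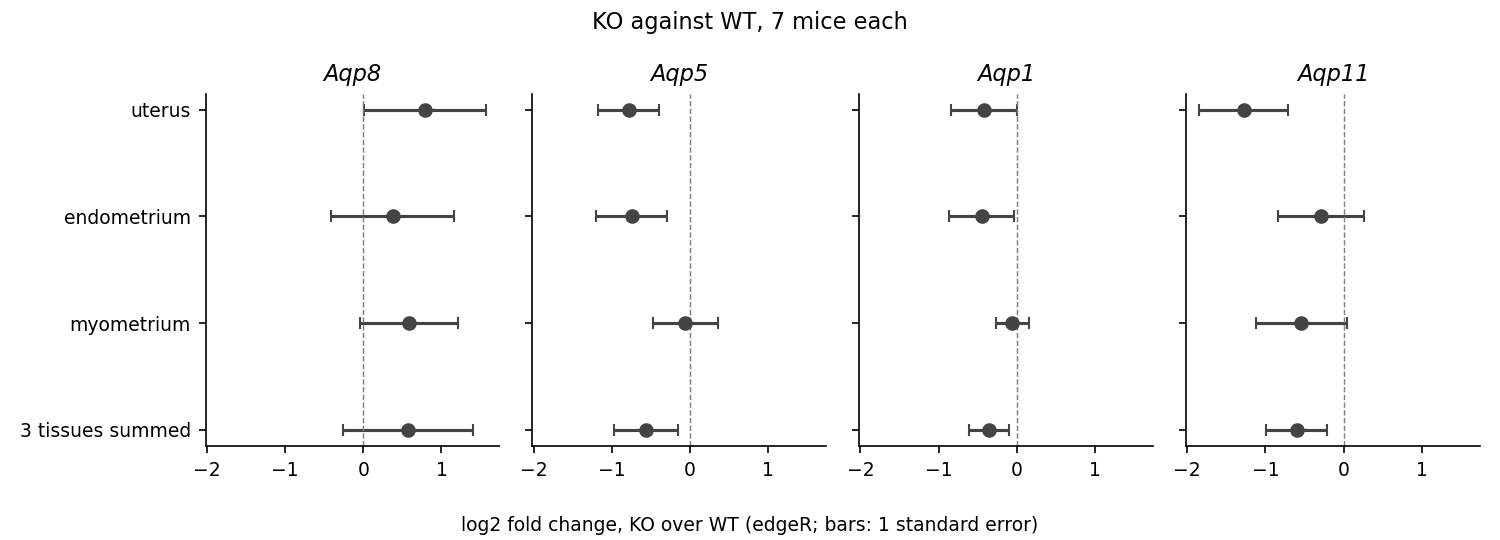
Log2 fold change of KO over WT (points) with 1 standard error (bars) for 4 members, in each tissue and in the sums over the 3 tissues of each mouse (edgeR, 7 mice per genotype). Aqp8 points lie above 0 and those of Aqp5, Aqp1 and Aqp11 below it, and none passed an adjusted p of 0.05.

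The layer difference was compared between genotypes by the interaction term over endometrium and myometrium of all 14 mice. It was -0.20 ± 1.15 on the log2 scale for Aqp8, -0.69 ± 0.68 for Aqp5, -0.37 ± 0.49 for Aqp1 and 0.27 ± 0.84 for Aqp11. No member and 0 of 14314 genes passed the threshold (edgeR; 4.6% of genes and 0 members had an unadjusted p under 0.05, and DESeq2 called 0). With the mouse as a block 10 genes were called, again with no member among them.

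Genes that move ions, on which water follows, were listed beside the channels. Of 32 genes for epithelial ion and fluid transport, 28 were tested. In WT 8 of them were higher in endometrium and 1 was lower, with a median log2 fold change of 0.84 over the 28 (0.01 over all genes, of which 6.81% were called higher and 6.39% lower). In KO 11 were higher and 2 lower, with a median of 1.06 (0.08 over all genes, of which 10.6% were called higher and 8.71% lower). The 8 called higher in both genotypes included Car12, a carbonic anhydrase at the cell surface (log2 fold change 3.11 ± 0.47 in WT and 2.97 ± 0.60 in KO), Prss8, a protease that acts on the epithelial sodium channel (2.48 ± 0.49 and 3.23 ± 0.45), and Car4, another membrane carbonic anhydrase (2.48 ± 0.78 and 3.23 ± 0.89). Slc4a7, a sodium bicarbonate cotransporter, was the only one called lower in both (-1.14 ± 0.28 and -1.48 ± 0.29).

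The between-mouse order of Aqp8 was set against the same list. With tissue means subtracted, r over the 42 samples was 0.74 with Car4 and 0.33 with Fxyd3, a modulator of the sodium pump, and -0.32 with Fxyd4, a related modulator. Of the genes tied to steroid action, r was 0.42 with Greb1, 0.23 with the oestrogen receptor gene Esr1, 0.01 with the progesterone receptor gene Pgr, -0.31 with Ltf and -0.56 with Muc1. Of 8 such genes, 7 were tested between layers in WT and 6 in KO. Called higher in endometrium in both genotypes were 2, Muc1 (3.06 ± 0.54 in WT and 3.71 ± 0.67 in KO) and Ltf (2.51 ± 0.63 and 2.98 ± 0.67). Fkbp5 was called lower in WT (-3.22 ± 0.53) but not in KO (0.12 ± 0.51). Over all genes 6.81% were called higher and 6.39% lower in WT, and 10.6% and 8.71% in KO. Of 6 genes of glycerol handling, listed because Aqp3, Aqp7 and Aqp9 pass glycerol, Gpd1 was called higher in endometrium in both genotypes (2.81 ± 0.68 and 3.64 ± 0.59). No gene of these 3 lists was called between genotypes in any tissue by edgeR or DESeq2. At an unadjusted p under 0.05, 2 genes of ion transport passed in uterus, 2 in endometrium and 1 in myometrium, 1 steroid gene passed in endometrium and 1 in myometrium, and 3 glycerol genes passed in endometrium. Over all genes the shares at that level were 5.64% in uterus, 5.2% in endometrium and 4.22% in myometrium.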

How the data were processed

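Expression was measured in 45 STRT libraries made from 10 ng of RNA each, with ERCC spike-ins. The authors deposited raw counts per gene symbol. Per the methods of the study, the authors joined reads by molecular identifier, aligned them with TopHat to mm9 and counted over UCSC gene models with Homer, whereas the submitters' processing notes name HTSeq. Use of strand and of reads with several positions was not given in the sources used here.

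Groups came from the labels. Repeat libraries of KO mouse 13 (3 of endometrium) and WT mouse 12 (2 of myometrium) were added up, and the mouse was the replicate. The 92 spike-ins were left out of totals. Genes that reached 1 CPM in 5 or more samples were fitted in R 4.3.3 with TMM factors and the quasi-likelihood F test of edgeR 4.0.16, with Benjamini-Hochberg adjustment over all genes and a threshold of 0.05. The standard error was the absolute log2 fold change divided by the root of F. Shares between mice and r used log2 CPM with a prior count of 2. KO was compared with WT per tissue and in sums over tissues, endometrium with myometrium per genotype, and an interaction was fitted. Unless the mouse is named as a block, the layer and interaction fits and their standard errors ignore the pairing of layers within mice. Whole uterus contains both layers and was not tested against them. Scripts were tested on simulated data.

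Alternatives were another tool (DESeq2 1.42.0), scaling by spike-ins or by relative log expression factors, other filters, 1 library per mouse, all groups in a single fit, plate rows as a covariate or apart, the mouse as a block, and each mouse left out. A mouse number marks the same animal in the labels, so layers are paired by it. Deviations from group means in endometrium and myometrium correlated over 14822 genes at a mean r of 0.09 (WT) and 0.13 (KO) for the same mouse, against -0.01 and -0.02 for different mice.

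All members and Plag1 were always named. For Aqp8, Aqp1 and Aqp5 the 3 genes with the highest r were named. From each list the genes with the largest layer change were named, at most 3 per direction, among those called in both genotypes. The r of Aqp1 and Aqp5 with tissue means subtracted was chosen after its values were seen. So were the other list genes whose r with Aqp8 is given, and the layer values of Lipe, Msln, Upk3b and Fkbp5. The members and all lists were chosen with earlier results of these data known.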

Additional observations from a re-analysis of the deposited data

How the results depend on the processing

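Group means of Aqp1, Aqp5, Aqp8 and Aqp11 in CPM moved by less than 1 SD with TMM sizes, spike-in scaling and 1 library per mouse. The Aqp8 log2 fold change for layers stayed between 1.90 and 3.04 in WT and between 2.12 and 2.84 in KO, its adjusted p (edgeR or DESeq2) ranged from 9.49e-14 to 0.122 and from 1.45e-14 to 0.134, and the number of members called in each genotype was 2 to 3 with mice left out. With the mouse as a replicate block, Aqp8 was at 2.40 in WT and 2.40 in KO, with the lowest adjusted p in each, and the pairing changed no call of a member. It turned the sign of the Aqp8 interaction to 0.0093, which spike-in scaling put at 0.21.

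Changes of sign in KO against WT were all within fits where no member was called. Within plate rows A to C, Aqp11 was at 0.28 in endometrium, and Aqp1 at 0.27 and Aqp5 at 0.087 in myometrium. Within rows D to F, Aqp1 was at 0.066 in uterus and 0.10 in endometrium, Aqp8 at -0.78 in endometrium and -0.039 in the sums, and Aqp5 at 0.0061 and Aqp11 at 0.47 in myometrium. With plate rows as a covariate, Aqp5 in myometrium was at 0.048. The cause of these changes was not tested. Aqp11 was not tested within rows D to F in uterus, nor at the 10 CPM filter in myometrium and in the layer comparison of KO.

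With single mice left out, the log2 fold change of KO against WT in endometrium ranged from -0.080 to 0.82 for Aqp8 and from -0.69 to 0.24 for Aqp11. In myometrium it ranged from -0.15 to 0.072 for Aqp1 and from -0.26 to 0.15 for Aqp5. The layer value of Aqp11 in WT ranged from -0.091, without WT mouse 12, to 1.02. The interaction ranged from -0.84 to 0.066 for Aqp1, from -0.83 to 0.36 for Aqp8 and from -0.12 to 0.99 for Aqp11.

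The share of the Aqp8 sum of squares between mice, whose alternatives were chosen after seeing the data, was 95.4% with spike-in scaling, 93.4% with 1 library per mouse and 92.4% to 95.3% with single mice left out. For Aqp5 it was 81.8% to 87.7% with single mice left out. Aqp11 and the 5 members near 0 are limited by depth.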
